A study of Mus musculus with 15 samples.

Results

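The retinoid genes described here are 9 genes that bind retinoids, make or break down retinoic acid, or answer to it: Crabp1, Crabp2, Rbp4, Stra6, Aldh1a1, Aldh1a2, Aldh1a3, Cyp26b1 and Rarb. They were picked by symbol from the 29072 gene symbols of an RNA sequencing table, and each gene was represented by the transcript row with the highest mean level over the 15 libraries. That mean over every library is the measured value used to pick rows, and the genes themselves were proposed with earlier results of these libraries known. The cells were preadipocytes, the precursors of brown fat cells, grown out from stromal and vascular cells of interscapular BAT (brown adipose tissue) of the mouse strain 129SvEv and immortalised with the SV40 large T antigen, so every group carries that antigen. The groups of 3 libraries each were control cells, cells given 5.56 nM FGF1, FGF8b or FGF9 for 48 h, and cells given FGF8b and also 2 µM BAY-876, which blocks the glucose transporter GLUT1. The series text gives 1 µg/ml heparin with the FGFs, while among the sample labels heparin is named with FGF9 only, and nothing says whether the control cells received heparin or the same 48 h. No group received BAY-876 or heparin alone, and separate cultures are not stated for the 3 libraries within a group, so p-values measure only the spread between libraries, which may be technical.

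Vitamin A travels in blood as retinol bound to RBP4, and the membrane receptor STRA6 can bring it into cells. Retinol is oxidised reversibly to retinaldehyde, and the 3 retinaldehyde dehydrogenases ALDH1A1, ALDH1A2 and ALDH1A3 oxidise retinaldehyde irreversibly to retinoic acid. CRABP1 and CRABP2 bind retinoic acid in the cytosol, CYP26 enzymes break it down, and in the nucleus it activates the receptors RARα, RARβ and RARγ with their RXR partners. In brown fat precursors retinoic acid is known for effects on differentiation and on Ucp1, whose enhancer is a textbook target of retinoic acid receptors.

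Levels are given in RPKM (reads scaled to transcript length in kilobases and to sequencing depth in M reads) as mean ± SD over the 3 libraries of a group (n = 3). Changes are differences of mean log2(RPKM + 0.5) ± SE from limma over the 13869 genes that reached 0.5 RPKM in 3 or more libraries, with p-values adjusted by Benjamini-Hochberg and a threshold of 0.05. The added 0.5 RPKM understates the change of genes at low levels. A second value is therefore given for some of these changes, but for no gene of the pathway or marker lists below. It is a log2 change from limma voom on reads recovered from the table, or a ratio of reads with its exact 95% interval. Such intervals cover counting error only. The libraries held 27.0 to 42.6 M reads, in which 1 read on a transcript of 1 kb is worth 0.0234 to 0.037 RPKM. Of the 9 genes, 7 passed the level filter. Stra6 and Cyp26b1 did not. Aldh1a3, Aldh1a1 and Rarb passed through the groups in which they were high, so the 7 tested genes are not a neutral sample of the 9.

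The retinoid genes did not move as a block. Crabp1 rose in every treated group and stood at 1263 RPKM or more in each FGF8b and FGF9 library. Among the synthetic enzymes Aldh1a1 fell to a few reads, Aldh1a2 fell with FGF8b and FGF9, and Aldh1a3 rose with them. Crabp2 was high with FGF1. With BAY-876 beside FGF8b, Crabp1, Rbp4, Aldh1a2 and Aldh1a3 were lower than with FGF8b alone.

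**Figure D1:**
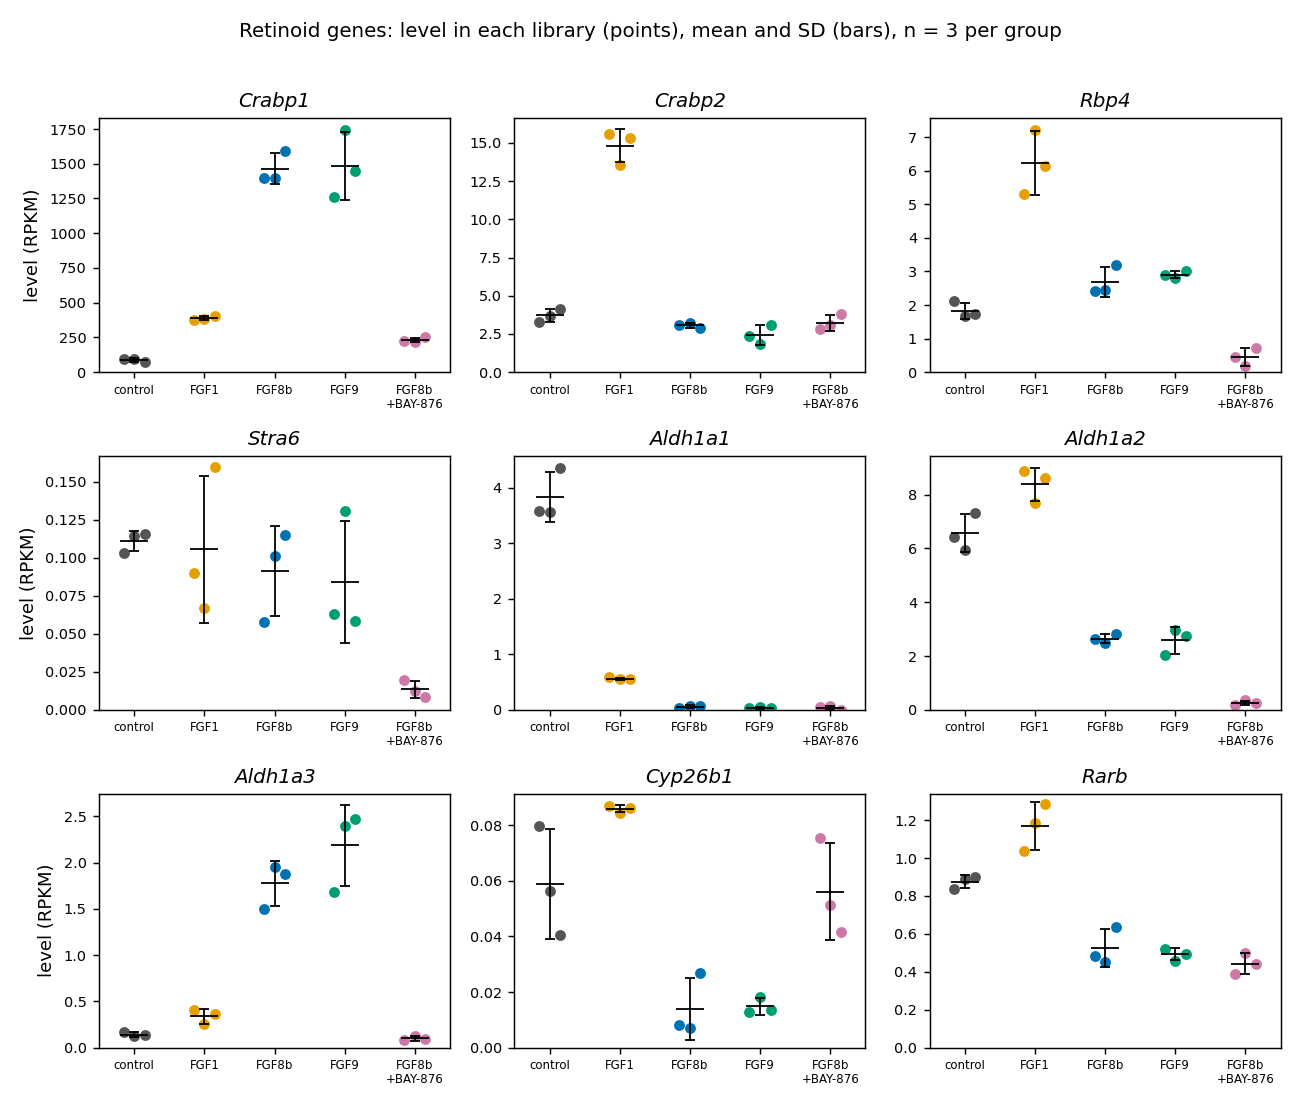
Level of each retinoid gene (RPKM, linear axis from 0, scale differs by panel) in the 15 libraries of 5 groups. Points are libraries, and bars are the mean and SD of 3. Crabp1 stands at 1463 RPKM on average with FGF8b and 1485 with FGF9, Crabp2 at 14.8 with FGF1, and Aldh1a1 at 3.83 in control against at most 0.0696 in any FGF8b, FGF9 or BAY-876 library.

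Promoter windows were available for 7 of the 9 genes, from RefSeq on GRCm38.p6, each running from 250 bases before to 50 after a transcription start. They are shown for Crabp1, whose transcript changed most upward, and for Rarb, whose promoter is a textbook target of retinoic acid receptors. Of Rbp4, only the window that holds the match marked below is shown. Capitals mark matches to TGATGNAA, the letters of an element bound by ATF4 with C/EBP partners, in Crabp1 and Rbp4, and to DR5, the direct repeat bound by retinoic acid receptors, in Rarb. Both strands were searched, and the lines read 5′ to 3′ along the strand of the gene, which is plus for Crabp1 (chr9:54764498-54764797) and minus for Rarb (chr14:16575427-16575726) and Rbp4 (chr19:38125272-38125571).
Crabp1: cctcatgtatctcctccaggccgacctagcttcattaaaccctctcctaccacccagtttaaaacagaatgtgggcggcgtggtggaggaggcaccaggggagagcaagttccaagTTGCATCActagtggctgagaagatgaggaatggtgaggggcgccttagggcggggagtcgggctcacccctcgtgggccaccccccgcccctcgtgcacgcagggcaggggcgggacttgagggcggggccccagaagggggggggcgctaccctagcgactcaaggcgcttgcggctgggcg
Rarb: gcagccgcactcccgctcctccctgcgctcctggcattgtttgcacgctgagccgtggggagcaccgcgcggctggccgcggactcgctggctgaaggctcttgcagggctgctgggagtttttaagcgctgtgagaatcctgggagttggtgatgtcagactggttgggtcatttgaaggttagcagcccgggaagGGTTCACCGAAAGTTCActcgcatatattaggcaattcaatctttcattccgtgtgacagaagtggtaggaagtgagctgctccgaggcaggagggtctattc
Rbp4: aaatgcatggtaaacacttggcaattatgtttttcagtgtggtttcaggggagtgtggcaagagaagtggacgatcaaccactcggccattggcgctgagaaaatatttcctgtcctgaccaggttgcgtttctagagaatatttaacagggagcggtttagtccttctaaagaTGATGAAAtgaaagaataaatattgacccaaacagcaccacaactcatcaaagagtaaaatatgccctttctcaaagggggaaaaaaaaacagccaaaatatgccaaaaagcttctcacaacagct

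The Crabp1 match lies on the opposite strand from -134 to -127 relative to the start, and the Rbp4 match on the strand of the gene from -76 to -69. TGATGNAA occurs in 3.97% of the 32851 RefSeq promoter windows of the same length. DR5 lies from -53 to -37 in Rarb and occurs in 0.0974% of windows, and none of the other 11 windows of these genes holds it. The DR2 repeat, searched in the same way, occurs in 0.268% of windows and in none of these genes' windows. The AP-1 letters TGANTCA, a palindrome found on both strands at once, occur in 7.81% of windows, including 1 of Aldh1a1 from -57 to -51 and the other of Rbp4 from -142 to -136. The letters TATAAA, also searched, occur in 13.6% of windows, including the Rbp4 window not shown from -28 to -23 and that of Cyp26b1 from -139 to -134. A match describes letters only and is no measured binding site.

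Crabp1 (chromosome 9, 54764748 to 54773110 in GRCm38), the cytosolic protein that holds retinoic acid and is linked to its breakdown, had the highest levels of the 9 genes in every group. Control libraries held 91.4, 96.5 and 73.1 RPKM, and FGF1 libraries 373, 384 and 402. FGF8b libraries held 1397, 1399 and 1593, FGF9 libraries 1263, 1745 and 1448, and libraries with FGF8b plus BAY-876 223, 218 and 250.2. Each treated group lay above all control libraries, the FGF8b and FGF9 groups overlapped each other, and the BAY-876 group fell between control and FGF1 without touching either.

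Against control, Crabp1 rose by 2.15 ± 0.11 with FGF1 (limma, adjusted p = 1.16e-09), 4.07 ± 0.11 with FGF8b (adjusted p = 7.36e-14) and 4.08 ± 0.11 with FGF9 (adjusted p = 5.91e-14). In reads, the level was 16.9 times that of control with FGF8b (exact 95% interval 16.4 to 17.3) and 4.47 times with FGF1 (4.35 to 4.59). The mean of FGF8b and FGF9 was above FGF1 by 1.92 ± 0.10 (adjusted p = 8.02e-11), a direct test of that difference. Only 0.339% of tested genes had a change with FGF1 as large in size. The table's second row for Crabp1 holds identical reads and adds no evidence.

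Crabp2 (chromosome 3, 87948666 to 87953376), which carries retinoic acid to its nuclear receptors, followed another order. Its level was 3.28, 3.69 and 4.14 RPKM in control, 15.6, 13.6 and 15.3 with FGF1, and 3.10, 3.20 and 2.87 with FGF8b. It was 2.34, 1.85 and 3.10 with FGF9, and 2.80, 3.08 and 3.83 with FGF8b plus BAY-876. All FGF1 libraries stood above all others, and each remaining group overlapped its neighbour in the order of levels. FGF1 raised it by 1.87 ± 0.14 (limma, adjusted p = 5.12e-08), and the FGF8b and FGF9 mean was below FGF1 by 2.26 on the log2 scale (log2 change -2.26 ± 0.12, adjusted p = 1.55e-10). FGF9 lowered it (-0.54 ± 0.14, adjusted p = 0.00292), while the FGF8b value was -0.24 ± 0.14 (adjusted p = 0.147). The ratio of the Crabp1 to the Crabp2 level was 23.9 ± 5.48 in control and 26.2 ± 2.17 with FGF1. It was 481 ± 65.0 with FGF8b, 651 ± 258 with FGF9 and between 65.3 and 79.8 in the libraries with FGF8b plus BAY-876. The ratio overlapped between control and FGF1 and was higher in every library of the other groups.

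Rbp4 (chromosome 19, 38116629 to 38125281), the secreted carrier of retinol and an adipokine, was at 2.11, 1.68 and 1.72 RPKM in control. It was at 5.32, 7.22 and 6.14 with FGF1, at 2.40, 2.46 and 3.20 with FGF8b, and at 2.91, 2.80 and 3.02 with FGF9. With FGF8b plus BAY-876 it was at 0.454, 0.175 and 0.727. FGF1 libraries were the highest and BAY-876 libraries the lowest, with no overlap with the other groups. The rise with FGF1 was 1.52 ± 0.17 (limma, adjusted p = 4.98e-06), with FGF9 0.55 ± 0.17 (adjusted p = 0.0111) and with FGF8b 0.45 ± 0.17 (adjusted p = 0.0346). The FGF8b and FGF9 mean was below FGF1 (-1.02 ± 0.15, adjusted p = 1.98e-05). The FGF8b call was lost without control library 2 (0.40, adjusted p = 0.1), control library 3 (0.41, 0.0882) or FGF8b library 3 (0.33, 0.142), and also with voom (0.53, 0.0514). It was lost too with a pseudocount of 0.1 (0.52, adjusted p = 0.109), which also ended the FGF9 call (0.64, 0.0513). No level filter (0.445, adjusted p = 0.0738), trimmed-mean scaling (0.38, 0.0621) and summed rows (0.51, 0.0932) ended the FGF8b call as well.

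The retinaldehyde dehydrogenases make retinoic acid, and the 3 genes went apart. Aldh1a1 (chromosome 19, 20492715 to 20643465), known in fat for its part in retinaldehyde metabolism, was at 3.58, 3.57 and 4.35 RPKM in control and at 0.584, 0.547 and 0.551 with FGF1. It was at 0.0316, 0.0689 and 0.0696 with FGF8b, at 0.0369, 0.0592 and 0.0264 with FGF9, and at 0.0533, 0.0665 and 0 with FGF8b plus BAY-876. Control stood above FGF1 and FGF1 above the other groups, which overlapped one another at a few reads per library. In reads over the 3 libraries of a group, 815 stood in control, 101 with FGF1, 11 with FGF8b, 10 with FGF9 and 8 with BAY-876.

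The level of Aldh1a1 in control was 6.86 times that with FGF1 (exact 95% interval 5.58 to 8.53), 67.8 times that with FGF8b (37.7 to 136), 93.0 times that with FGF9 (50.3 to 195) and 107 times that with FGF8b plus BAY-876 (54.0 to 248). On the log2(RPKM + 0.5) scale the changes were -2.03 ± 0.09 with FGF1 (limma, adjusted p = 2.89e-10), -2.96 ± 0.09 with FGF8b (adjusted p = 2.86e-13) and -2.997 ± 0.09 with FGF9 (adjusted p = 2.18e-13). Voom gave -2.75, -5.96 and -6.40 for the same comparisons. Aldh1a7, the neighbouring copy closest to Aldh1a1, was too low to test, at 0.373 ± 0.172 RPKM in control, 0.0575 ± 0.0469 with FGF1 and listed at 0 in every FGF8b and FGF9 library. The sources do not say how reads shared by such copies were assigned.

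Aldh1a2 (chromosome 9, 71215789 to 71296243), the main retinoic acid-making enzyme of the embryo, was at 6.44, 5.95 and 7.32 RPKM in control and at 8.86, 7.69 and 8.60 with FGF1. It was at 2.62, 2.49 and 2.82 with FGF8b, at 2.03, 2.98 and 2.74 with FGF9, and at 0.196, 0.352 and 0.245 with FGF8b plus BAY-876. FGF8b and FGF9 libraries overlapped each other and lay below all control libraries, with the BAY-876 libraries far below them. Aldh1a2 changed by -1.17 ± 0.12 with FGF8b (limma, adjusted p = 4.45e-07) and by -1.21 ± 0.12 with FGF9 (adjusted p = 2.81e-07), and the FGF8b and FGF9 mean was below FGF1 (-1.52 ± 0.10, adjusted p = 3.4e-09). The FGF1 value was 0.33 ± 0.12 (adjusted p = 0.0432), and that call was lost without control library 1 (0.32, adjusted p = 0.098) or 2 (0.27, 0.159) and without FGF1 library 1 (0.29, 0.132) or 3 (0.31, 0.113). It was also lost with a pseudocount of 0.1 (0.35, adjusted p = 0.104), with no level filter (0.33, 0.0829), under trimmed-mean scaling (0.30, 0.0608) and with rows summed (0.34, 0.0756).

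Aldh1a3 (chromosome 7, 66390890 to 66427517), the third enzyme of the family, went the other way. It was at 0.168, 0.121 and 0.133 RPKM in control, at 0.404, 0.251 and 0.359 with FGF1, and at 1.501, 1.95 and 1.87 with FGF8b. With FGF9 it was at 1.69, 2.39 and 2.47, and with FGF8b plus BAY-876 at 0.0796, 0.129 and 0.0897. FGF8b and FGF9 libraries were the highest and overlapped each other, and BAY-876 libraries overlapped control. FGF8b raised it by 1.82 ± 0.12 (limma, adjusted p = 2.83e-09) and FGF9 by 2.05 ± 0.12 (adjusted p = 5.89e-10), or 3.62 and 3.90 with voom. In reads the level was 12.6 times that of control with FGF8b (exact 95% interval 9.43 to 17.2) and 15.42 times with FGF9 (11.6 to 20.9). The FGF8b and FGF9 mean was above FGF1 by 1.56 ± 0.11 (limma, adjusted p = 3.15e-09), or 2.52 with voom. In reads it was 5.85 times FGF1 (exact 95% interval 4.79 to 7.22). The FGF1 value was 0.38 ± 0.12 (limma, adjusted p = 0.0238), or 1.24 with voom (adjusted p = 0.014). In reads the level with FGF1 was 2.42 times that of control (exact 95% interval 1.71 to 3.47), without overlap of libraries. The limma call was lost without control library 2 (0.36, adjusted p = 0.0696) or 3 (0.38, 0.0562). It was also lost without FGF1 library 1 (0.33, 0.0935) or 3 (0.36, 0.0701) and with a pseudocount of 1 (0.23, 0.0692).

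Summed over the 3 genes, retinaldehyde dehydrogenase transcripts stood at 10.5 ± 1.13 RPKM in control and 9.29 ± 0.708 with FGF1, where the ranges overlapped. The sum was 4.48 ± 0.308 with FGF8b, 4.81 ± 0.917 with FGF9 and 0.404 ± 0.125 with FGF8b plus BAY-876. Every library of these last groups was below every control and FGF1 library. The make-up of the sum differed too: Aldh1a1 was 36.3% ± 1.07 of it in control and 6.05% ± 0.344 with FGF1, where Aldh1a2 took 90.3% ± 0.306. Aldh1a3 was 1.35% ± 0.271 in control, 39.6% ± 3.61 with FGF8b and 45.4% ± 1.61 with FGF9. These sums are transcript levels per length and say nothing of enzyme activity or of retinoic acid, which was not measured.

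**Figure D2:**
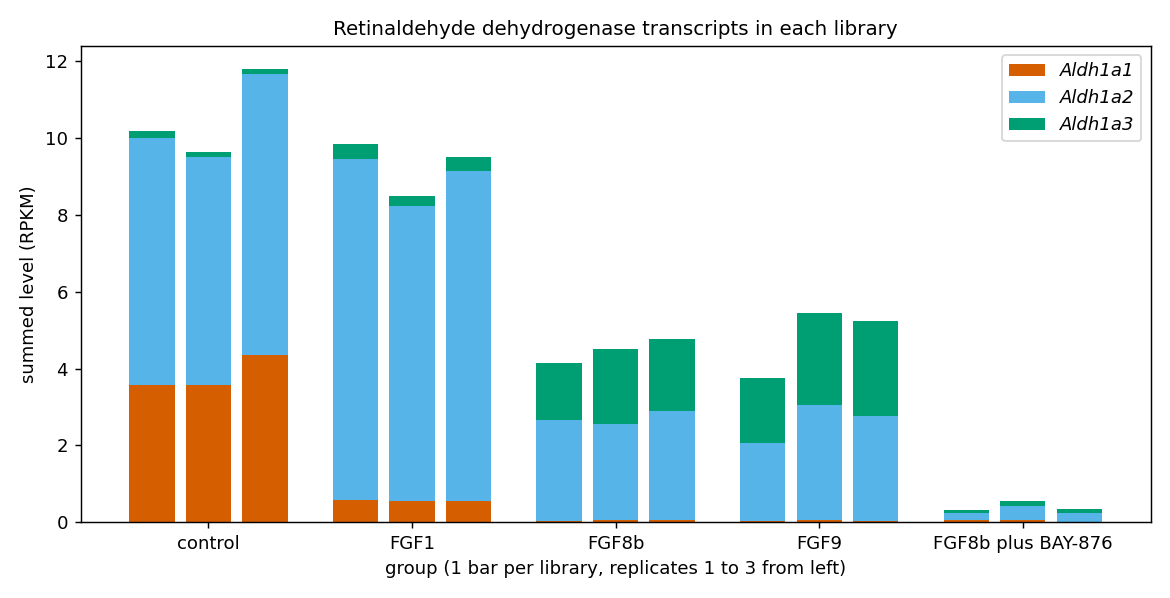
Summed level (RPKM, axis from 0) of Aldh1a1, Aldh1a2 and Aldh1a3 in each of the 15 libraries, stacked by gene. The sum averages 10.5 RPKM in control, 9.29 with FGF1, 4.48 with FGF8b, 4.81 with FGF9 and 0.404 with FGF8b plus BAY-876, and the Aldh1a3 part is 39.6% with FGF8b against 1.35% in control.

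Rarb (chromosome 14, 16430839 to 16819156), the receptor gene that carries the DR5 match shown above and is known to be induced by retinoic acid, was at 0.835, 0.890 and 0.902 RPKM in control. It was at 1.04, 1.19 and 1.28 with FGF1, at 0.486, 0.454 and 0.637 with FGF8b, at 0.523, 0.460 and 0.493 with FGF9, and at 0.390, 0.499 and 0.439 with FGF8b plus BAY-876. FGF1 libraries were the highest, control next, and the other groups overlapped below them. Rarb passed the level filter only through the control and FGF1 libraries. The changes were -0.43 ± 0.09 with FGF8b (limma, adjusted p = 0.000865, -0.76 with voom) and -0.47 ± 0.09 with FGF9 (adjusted p = 0.000358, -0.83 with voom). The FGF8b and FGF9 mean was below FGF1 (-0.73 ± 0.08, adjusted p = 1.01e-06). The FGF1 value was 0.28 ± 0.09 (adjusted p = 0.0318), and leaving out control library 1 (0.26, adjusted p = 0.0896), 2 (0.28, 0.0622) or 3 (0.29, 0.0515) or FGF1 library 2 (0.27, 0.0823) or 3 (0.23, 0.125) ended that call. A pseudocount of 0.1 (0.37, adjusted p = 0.0647) and a fit on control and FGF1 alone (0.28, 0.0587) ended it too. In the GENCODE annotation exons of Rarb share bases with Top2b and Gm48162, and the sources do not say whether counting used the strand, so reads on those bases cannot be told apart.

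**Figure D3:**
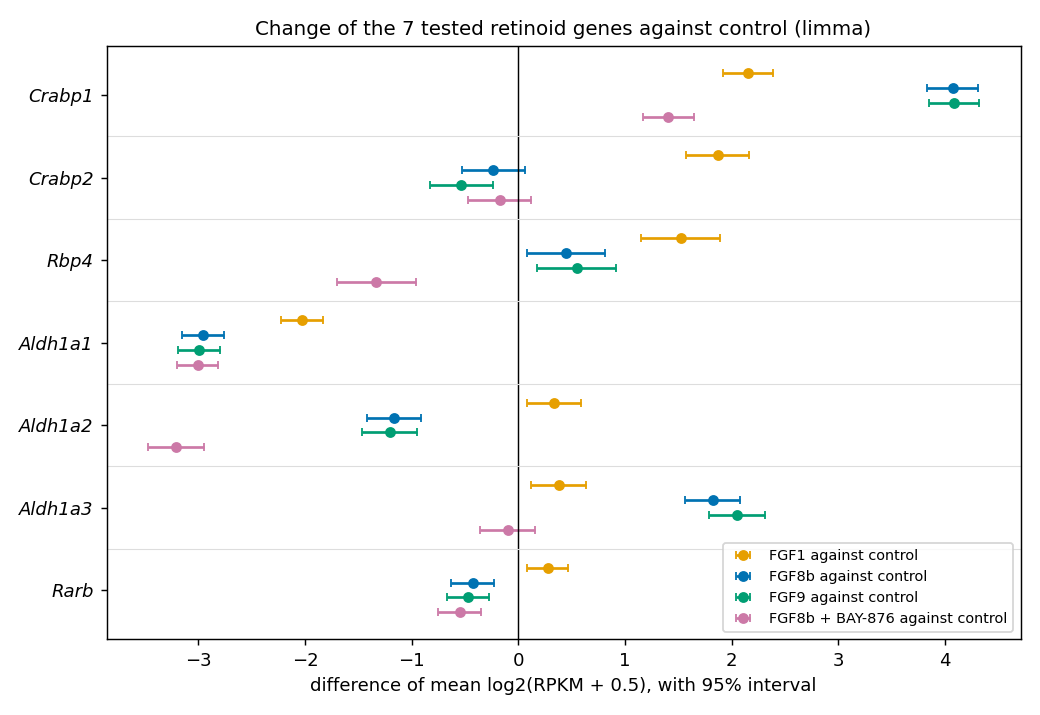
Difference of mean log2(RPKM + 0.5) from control for the 7 tested retinoid genes, with 95% intervals from limma, in 4 treated groups of 3 libraries. Crabp1 is at 2.15, 4.07, 4.08 and 1.41 in FGF1, FGF8b, FGF9 and FGF8b plus BAY-876, and Aldh1a3 at 0.38, 1.82, 2.05 and -0.10.

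Stra6 and Cyp26b1 were below the filter in every group and are described by their reads. Stra6 (chromosome 9, 58063788 to 58153996), the retinol uptake receptor, had 32 reads over the 3 libraries in control, 26 with FGF1, 24 with FGF8b, 28 with FGF9 and 4 with FGF8b plus BAY-876. Per library its level ran from 0.103 to 0.116 RPKM in control and from 0.00847 to 0.0196 with BAY-876. The BAY-876 libraries lay below all others, and the other groups overlapped. The row used is 1 of 14 for Stra6, and its shorter rows had more reads with FGF8b than in control. One of 1995 bases had 2 reads in control, 9 with FGF8b and 2 with FGF8b plus BAY-876. The level in FGF8b was 6.89 times that with BAY-876 added (exact 95% interval 2.37 to 27.3). Without the level filter, limma gave a log2 change of -0.20 ± 0.06 for BAY-876 added to FGF8b (adjusted p = 0.0131).

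Cyp26b1 (chromosome 6, 84571414 to 84593908), which breaks down retinoic acid, had 24 reads in control, 30 with FGF1, 5 with FGF8b, 7 with FGF9 and 24 with FGF8b plus BAY-876. Its level was 0.0589 ± 0.0198 RPKM in control, 0.0141 ± 0.0112 with FGF8b, 0.0149 ± 0.00301 with FGF9 and 0.0562 ± 0.0174 with BAY-876. FGF8b and FGF9 libraries lay below those of control, and the BAY-876 libraries overlapped control. The control level was 4.39 times that with FGF8b (exact 95% interval 1.64 to 14.7) and 3.91 times that with FGF9 (1.64 to 10.8). The level with BAY-876 was 4.18 times that with FGF8b alone (1.56 to 14.03). Without the level filter the FGF8b value was -0.12 ± 0.03 (limma, adjusted p = 0.00355).

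Read against the whole table, the counts of called retinoid genes describe a set chosen with results known and support nothing by themselves. With FGF1, 6 of the 7 tested genes were higher and 1 lower, against 34.4% of all tested genes called (19.3% higher and 15.1% lower). With FGF8b, 3 were higher and 3 lower (64.4% of all genes called, 37.8% higher and 26.6% lower), and with FGF9, 3 and 4 (65.7% called, 38.7% and 27%). Between the FGF8b and FGF9 mean and FGF1, 2 were higher and 5 lower (65.6% called, 36.8% higher and 28.8% lower). The median changes of the 7 genes were 0.38, -0.24, -0.47 and -0.95 in these comparisons, and those of all tested genes 0.02, 0.08, 0.09 and 0.05. The first 3 of these comparisons share the control libraries. The balance of higher and lower calls over all genes depended on scaling. Under trimmed-mean scaling it was 16.2% higher and 17.3% lower with FGF1, 32% and 30.8% with FGF8b, 32.6% and 31.2% with FGF9, and 33.6% and 31.8% for their mean against FGF1. The same scaling left 6 of the 7 genes called with FGF1, without Aldh1a2, and 5 with FGF8b, without Rbp4.

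FGF9 was compared with FGF8b to ask whether the FGFs with like levels could be told apart. Of the 7 tested retinoid genes 0 passed limma, against 0.296% of all genes called (0.202% higher and 0.0937% lower). At an unadjusted p under 0.05 1 of the 7 passed, Crabp2 (-0.30 ± 0.14, adjusted p = 0.688), and voom called 0. The Crabp1 difference was 0.01 with a 95% interval from -0.23 to 0.25, that of Aldh1a2 -0.04 (-0.30 to 0.22) and that of Aldh1a3 0.23 (-0.03 to 0.49). These intervals bound the differences and do not show that the FGFs act alike.

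BAY-876 was added to FGF8b to block glucose uptake through GLUT1. Crabp1 fell from 1463 ± 112 to 230.5 ± 17.2 RPKM (-2.66 ± 0.11, limma, adjusted p = 2.88e-11), Aldh1a2 from 2.65 ± 0.168 to 0.265 ± 0.0799 (-2.04 ± 0.12, adjusted p = 1.39e-09, -3.35 with voom), Aldh1a3 from 1.78 ± 0.241 to 0.0995 ± 0.0262 (-1.92 ± 0.12, adjusted p = 3.56e-09, -4.15 with voom) and Rbp4 from 2.69 ± 0.443 to 0.452 ± 0.276 (-1.78 ± 0.17, adjusted p = 4.37e-07, -2.62 with voom). In reads, FGF8b alone was above FGF8b plus BAY-876 by 6.27 times for Crabp1 (exact 95% interval 6.17 to 6.37), 10.2 times for Aldh1a2 (7.85 to 13.5), 18.4 times for Aldh1a3 (13.1 to 26.5) and 5.49 times for Rbp4 (3.90 to 7.88). Thus 4 of the 7 tested genes were lower and 0 higher, against 57.3% of all tested genes called (22.5% higher and 34.8% lower). Under trimmed-mean scaling the same 4 genes were called and all genes were split almost evenly, with 27.8% higher and 29.5% lower. The median change of the 7 genes was -1.78 and that of all tested genes -0.08. Crabp2 (0.06, 95% interval -0.23 to 0.36), Rarb (-0.12, -0.32 to 0.08) and Aldh1a1 (-0.05, -0.24 to 0.15, at 11 and 8 reads) did not pass.

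Set against control, the cells with FGF8b plus BAY-876 had 1 of the 7 tested genes higher and 4 lower, where 72.7% of all genes were called (36.8% higher and 35.9% lower), with medians of -0.55 and 0.01. Crabp1 was still above control (1.41 ± 0.11, limma, adjusted p = 1.36e-08). Aldh1a2 was below it (-3.21 ± 0.12, adjusted p = 1.31e-12), in reads with control 25.7 times higher (exact 95% interval 19.9 to 33.6), and so were Aldh1a1 (-3.001), Rbp4 (-1.33 ± 0.17, adjusted p = 4.35e-06) and Rarb (-0.55 ± 0.09, adjusted p = 7.42e-05). Aldh1a3 was at -0.10 ± 0.12 (adjusted p = 0.491). In bulk RNA, fewer cells with a transcript and less of it per cell cannot be told apart.

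The wider retinoid pathway was described from 6 lists of 64 genes written from general knowledge, 62 of them in the table and 39 tested. Of the 39, 9 were higher and 5 lower with FGF1, 10 and 14 with FGF8b, 12 and 15 with FGF9, and 8 and 14 with BAY-876 added to FGF8b. The shares called were 35.9%, 61.5%, 69.2% and 56.4%, close to the 34.4%, 64.4%, 65.7% and 57.3% of all tested genes, so these counts are near the background. The medians were 0.10, -0.07, 0.01 and -0.12. Named genes come from the called ones with the largest change per list, up to 4.

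Of retinol and retinaldehyde enzymes, 13 of 20 in the table were tested. With FGF8b, 5 were higher and 3 lower (61.5% called, against 64.4% of all tested genes), and with FGF9, 5 and 5 (76.9% against 65.7%). Adh1, the alcohol dehydrogenase that oxidises retinol, fell from 11.7 ± 0.210 RPKM in control to 2.15 ± 0.212 with FGF1 (-2.21 ± 0.12, limma, adjusted p = 2.44e-09) and 0.860 ± 0.0901 with FGF8b (-3.17 ± 0.12, adjusted p = 3.9e-12). Dhrs3, which reduces retinaldehyde back to retinol and is itself induced by retinoic acid, was at 26.3, 25.2 and 26.7 RPKM in control, at 21.8, 20.4 and 23.1 with FGF1 and at 4.23, 3.92 and 4.93 with FGF8b. FGF8b libraries lay far below the other groups just given (-2.46 ± 0.11, adjusted p = 3.02e-11), and with BAY-876 Dhrs3 stood at 12.8 ± 1.71 RPKM (1.45 ± 0.11 against FGF8b, adjusted p = 3.27e-08).

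Adh7, another retinol-oxidising dehydrogenase, and Dhrs9, a retinol dehydrogenase, changed in opposite directions with FGF1 and the other FGFs. Adh7 was at 4.91 ± 0.745 RPKM in control, 2.58 ± 0.191 with FGF1 and 11.3 ± 1.13 with FGF8b, and at 17.1 ± 0.382 with BAY-876. Dhrs9 was at 0.641 ± 0.0696, 0.194 ± 0.0339, 1.49 ± 0.0649 and 1.36 ± 0.125 in the same groups. The FGF8b and FGF9 mean was above FGF1 by 1.88 ± 0.09 for Adh7 (limma, adjusted p = 2.44e-11) and by 1.56 ± 0.08 for Dhrs9 (adjusted p = 1.34e-10).

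Of the binding and uptake list, 2 of 7 genes in the table were tested. Fabp5, which can carry retinoic acid to PPARδ, rose from 75.5 ± 6.81 in control to 102.5 ± 3.71 with FGF1 (0.44 ± 0.07, limma, adjusted p = 6.96e-05) and stood at 166 ± 4.995 with BAY-876 against 81.0 ± 3.62 with FGF8b (1.03 ± 0.07, adjusted p = 3.53e-09).

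Of 10 tested nuclear receptors and cofactors, 1 was higher with FGF1, 2 were higher and 3 lower with FGF8b, and 5 were higher and 2 lower with FGF9. These are 10%, 50% and 70% of the list, against 34.4%, 64.4% and 65.7% of all tested genes. Rara, the gene of RARα, went from 7.64 ± 0.628 RPKM in control to 4.70 ± 1.14 with FGF8b (-0.67 ± 0.19, limma, adjusted p = 0.00597) and was lower in the FGF8b and FGF9 mean than with FGF1 (-0.94 ± 0.16, adjusted p = 0.000111). Rarg and Rxra, which are receptor genes of the same list, held 25.9 and 12.5 RPKM in control and 22.5 and 10.1 with FGF8b. Ppard, the gene of PPARδ, was lower with BAY-876 than with FGF8b (-0.58 ± 0.17, adjusted p = 0.00807), as was the coactivator Ncoa1 (-0.51 ± 0.07, adjusted p = 2.9e-05).

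Among 12 tested genes of a list known to be induced by retinoic acid, 4 were higher and 2 lower with FGF1, 3 and 6 with FGF8b, 2 and 6 with FGF9, and 2 and 6 with BAY-876 added to FGF8b. The shares called were 50%, 75%, 66.7% and 66.7%, against 34.4%, 64.4%, 65.7% and 57.3% of all tested genes. The medians were 0.17, -0.26, -0.24 and -0.24. Tgm2, tissue transglutaminase, was at 30.5, 28.5 and 27.4 RPKM in control, at 26.5, 28.1 and 29.2 with FGF1 and at 3.92, 3.52 and 3.61 with FGF8b. Control and FGF1 overlapped, and FGF8b lay far below both (-2.81 ± 0.10 against control, limma, adjusted p = 9.73e-13).

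Rarres1, a retinoic acid receptor responder, rose with FGF1 from 1.48 ± 0.292 to 2.54 ± 0.133 RPKM (0.63 ± 0.10, limma, adjusted p = 0.000195) and fell with FGF8b to 0.282 ± 0.0588 (-1.33 ± 0.10, adjusted p = 1.65e-08). Rarres2, which encodes the adipokine chemerin, fell from 3.70 ± 0.792 in control to 1.95 ± 0.409 with FGF1 (-0.78 ± 0.15, adjusted p = 0.000669), 1.25 ± 0.203 with FGF8b (-1.25 ± 0.15, adjusted p = 1.96e-06) and 0.415 ± 0.102 with BAY-876 (-0.94 ± 0.15 against FGF8b, adjusted p = 5.85e-05). Nr2f2, the orphan receptor COUP-TFII, rose instead, from 5.88 ± 0.940 in control to 10.6 ± 0.523 with FGF8b (0.81 ± 0.09, adjusted p = 1.16e-06) and 13.2 ± 0.0851 with FGF9 (1.11 ± 0.09, adjusted p = 2.62e-08).

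The 3 degradation genes beside Cyp26b1 were all below the filter: Cyp2s1 averaged at most 0.540 RPKM, and Cyp26a1 and Cyp26c1 averaged at most 0.0746 in any group. Of the ester storage list, 2 of 5 genes were tested. Lipe, a lipase that also cleaves retinyl esters, fell from 1.89 ± 0.317 RPKM in control to 1.02 ± 0.256 with FGF8b (-0.66 ± 0.14, limma, adjusted p = 0.000483), and Dgat1, which can esterify retinol, from 13.3 ± 0.595 with FGF8b to 9.32 ± 1.40 with BAY-876 (-0.50 ± 0.09, adjusted p = 0.000283). Lrat, which esterifies retinol in liver and eye, was at 0.0141 RPKM or less on average.

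**Figure D4:**
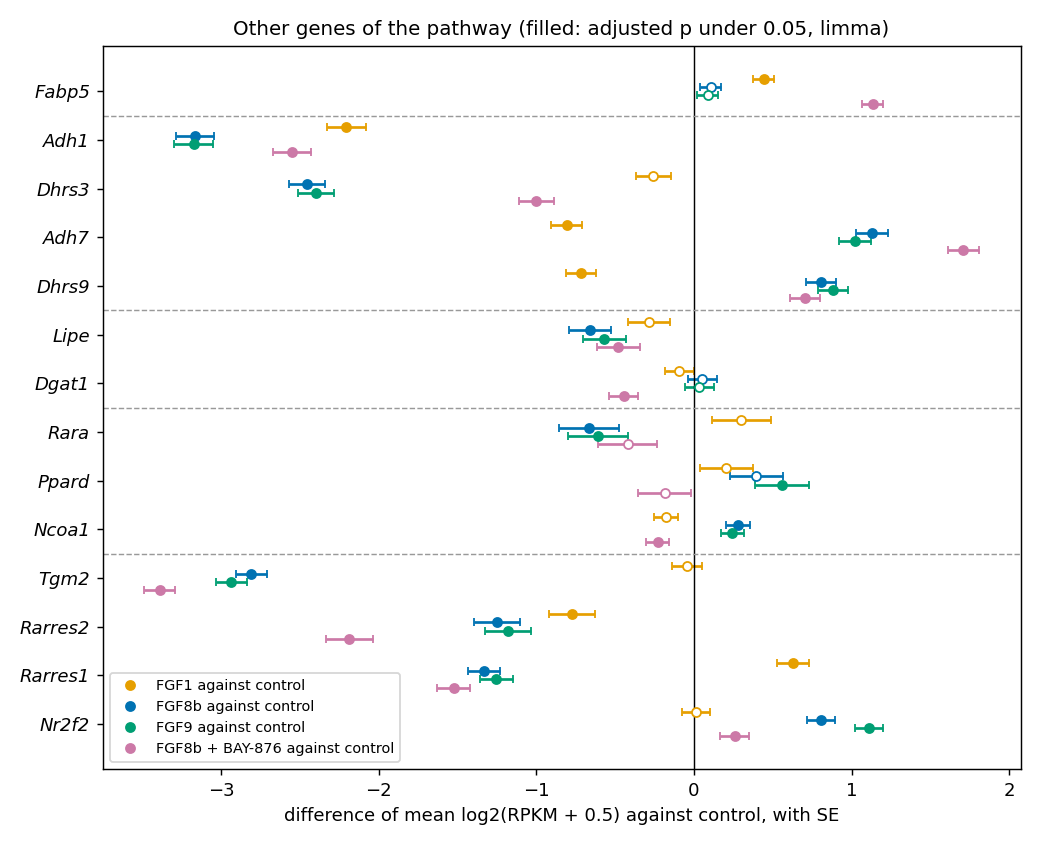
Difference of mean log2(RPKM + 0.5) from control ± SE for 14 named genes of the retinoid pathway lists in 4 treated groups, in order binding, enzymes, ester storage, receptors and cofactors, and induced genes (dashed lines between). Filled points passed limma, as Adh1 did at -2.21 with FGF1, and Tgm2 stands at -2.81 with FGF8b.

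Over the 15 libraries, the genes whose log2 levels were most like Crabp1, among 3418 candidates whose group means spanned at least 1 on the log2 scale, were Pycr1 (Pearson r 0.989), Trib2 (0.984), Gcnt4 (0.978), Fam132b (0.977) and Morc4 (0.975). Pycr1, the last enzyme of proline synthesis, was at 8.38 ± 0.828 RPKM in control, 15.2 ± 1.00 with FGF1, 27.4 ± 1.46 with FGF8b, 28.8 ± 3.08 with FGF9 and 13.7 ± 0.487 with BAY-876, the same order of groups as Crabp1. The most opposite were Hsd17b11 (-0.983), Ephx1 (-0.982) and Npr3 (-0.98). Those most like Aldh1a1 were Kcnma1 (0.998), Clec3b (0.996), Fmo1 (0.995), Gna14 (0.993) and Tlr1 (0.992). The libraries fall into groups, so these values mostly describe a shared order of group means, and they carry no test.

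The cells were checked against markers. Each of 8 preadipocyte markers averaged at least 0.5 RPKM in every group, and their summed level had medians of 1804 in control, 804 with FGF1, 323 with FGF8b, 333 with FGF9 and 127 with BAY-876. Ly6a made up much of that sum, at 1015 ± 72.8 in control, 245 ± 13.7 with FGF1 and 52.7 ± 2.95 with FGF8b. Other members differed in size or direction. Pdgfra was at 276 ± 2.67 in control, 298 ± 1.59 with FGF1 and 39.9 ± 5.67 with FGF8b. Cebpb rose from 3.19 ± 0.375 to 6.87 ± 0.922 with FGF8b. Pparg fell with FGF1 (-0.81 ± 0.11, limma, adjusted p = 2.79e-05) and FGF8b (-0.43 ± 0.11, adjusted p = 0.00291). With BAY-876 Pparg stood at 4.26 ± 0.272 against 3.75 ± 0.288 in control and was not called. Of the 8 markers, 2 were higher and 6 lower with FGF8b, against 37.8% and 26.6% of all tested genes. Dpt was among the lower (-3.45 ± 0.10, adjusted p = 1.23e-13). The summed level of 5 mature adipocyte markers was at most 0.0768 in any library. Of 6 mesothelial markers, a cell type known for Aldh1a2, the sum ran from 9.21 to 10.3 in control, from 11.02 to 13.5 with FGF1 and from 17.1 to 20.8 over FGF8b and FGF9, mostly from Lrrn4 (7.35 ± 0.507 in control, 17.95 ± 1.82 with FGF8b), while Upk3b was at 0 in every FGF8b, FGF9 and BAY-876 library. Wt1, another of these markers, was at 0.860 ± 0.0291 in control, 3.51 ± 0.453 with FGF1, 0.329 ± 0.126 with FGF8b, 0.336 ± 0.126 with FGF9 and 0.157 ± 0.0398 with BAY-876. It was highest with FGF1 and lowest with BAY-876, as Aldh1a2 and Rbp4 were on average, and it rose with FGF1 by 1.55 ± 0.13 (limma, adjusted p = 1.76e-07). Upk1b, too low to test, had the same highest and lowest groups. It was at 0.295 ± 0.0238 in control, 0.472 ± 0.0931 with FGF1 and 0.0662 ± 0.0464 with BAY-876. The other members of the list did not share that order. Krt19 was at 0.572 ± 0.0138 in control, 0.247 ± 0.0356 with FGF1 and 0.820 ± 0.220 with BAY-876, its highest mean. Lrrn4 had its lowest mean in control.

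Of 5 endothelial markers, the sum fell from 7.63 to 8.98 in control to 1.68 to 1.74 with FGF1 and at most 0.571 with FGF8b, as Aldh1a1 did. With FGF8b plus BAY-876 the sum ran from 0.752 to 0.921, above every FGF8b library, whereas the Aldh1a1 libraries of these groups overlapped. Nearly all of the sum in control was Kdr and Tek, whereas Pecam1 and Cdh5, which define endothelium, averaged at most 0.0814 in any group. Macrophage markers (4 of 5 in the table) summed to 1.499 to 2.70 in all libraries, but Lyz2 among them fell from 0.764 ± 0.0798 in control to 0.286 ± 0.0152 with FGF1 and 0.0569 ± 0.0255 with FGF8b. Csf1r went the other way with FGF1, from 0.888 ± 0.101 to 1.29 ± 0.111 (0.37 ± 0.11, limma, adjusted p = 0.0198), and Cd68 was called in no comparison. Ptprc, which defines leukocytes, averaged at most 0.00427 in any group. The 5 mural markers summed to 1.501 to 2.12 in control, 2.79 to 3.21 with FGF8b and 3.43 to 4.77 with BAY-876, without overlap among these groups and with Cspg4 the largest part in the treated ones. The 4 Schwann cell markers summed to 3.38 to 4.05 in control, 2.23 to 2.96 with FGF1, 1.41 to 1.72 with FGF8b and 1.16 to 1.29 with BAY-876, also without overlap among these. S100b carried most of that fall, at 2.72 ± 0.226 in control, 0.563 ± 0.00896 with FGF8b and 0.209 ± 0.0312 with BAY-876, while Sox10, which defines these cells, averaged at most 0.196 in any group. The part of these markers' shifts in the retinoid results was not tested.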

How the data were processed

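Total RNA of 15 libraries was read into 1 table of 168326 transcript lines, of which 145154 carried a symbol (29072 symbols). The values had a decimal comma and no stated unit. Their steps are those of RPKM, deposited by the authors on a scale per kilobase and M reads: 94.6% to 95.5% of low values per library were whole multiples of 1 read (tolerance 0.05). Per the labels' protocols, libraries were made with a TruSeq RNA kit. The submitters' processing notes name CASAVA and bcl2fastq. An aligner, genome build or annotation for the table is not given in the sources used here.

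From the table, limma 3.58.1 (R 4.3.3) was fitted with empirical Bayes and a mean-variance trend on log2(RPKM + 0.5), with 5 groups, 10 residual degrees of freedom and no covariates. Genes needed 0.5 RPKM in at least 3 libraries, and Benjamini-Hochberg adjustment ran over all 13869. Whole reads were recovered for all 13869 (tolerance 0.02 read, or the rounding of the deposited value where larger), and the inferred length equalled that of GENCODE M21 for 90.7% of 3476 Ensembl lines. They gave read sums, exact intervals (scipy 1.17.1) and voom. The fit was also run on simulated data with independent normal noise. Such data hold no shared library effects and no floor of low reads, and they support no result here. Alternatives were other pseudocounts and filters, trimmed-mean scaling, summed rows, voom, a fit on the compared groups alone, a replicate block and leaving out each library.

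Whether replicate numbers pair the libraries was not settled. Deviations from group means correlated above 0.1 in 11 of the 30 pairs with a shared number (-0.443 to 0.534). Pairs with different numbers were not set beside them. The libraries correlated across genes at 0.9913 to 0.9967 within and 0.8786 to 0.9962 between groups. All members were named, with up to 4 called genes per pathway list by size of change; for Crabp1 and Aldh1a1 the 5 most like genes, and for Crabp1 the 3 most opposite, were named. Of these, 2 genes are not reported here. Aldh1a7, Rarg, Rxra, the degradation genes, Lrat and single markers were added to show levels. The members, lists, markers and motifs were chosen with earlier results of these data known. Gene positions come from GENCODE on GRCm38, which need not be the annotation the authors used.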

Additional observations from a re-analysis of the deposited data

How the results depend on the processing

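Of 756 values of retinoid genes under alternatives, 718 kept their direction and side of the threshold, 29 lost a call and 9 changed sign, all 9 without a call. The lost calls are those given for Aldh1a2, Aldh1a3 and Rarb with FGF1 and for Rbp4 with FGF8b and FGF9. For the FGF1 comparison, the number of the 7 tested genes called fell to between 4 and 6 when 1 library was left out, and was 4 without control library 2 or FGF1 library 3. For FGF9 against FGF8b, Crabp1 turned to -0.02, -0.02 and -0.11 without FGF8b library 1, FGF8b library 2 and FGF9 library 2. Aldh1a2 turned to 0.001 and 0.10 without FGF8b library 3 and FGF9 library 1, and Rarb to 0.032 without FGF8b library 3. Over the libraries left out, these differences ran from -0.111 to 0.122 for Crabp1, -0.133 to 0.096 for Aldh1a2 and -0.094 to 0.032 for Rarb. Without BAY-876 library 3, Aldh1a1 turned to 0.009 and Crabp2 to -0.05 against FGF8b (ranges -0.081 to 0.009 and -0.05 to 0.147), and with rows summed Aldh1a3 was at 0.16 for BAY-876 with FGF8b against control. The 41 genes that limma called between FGF9 and FGF8b became 27 with a pseudocount of 0.1, 62 with voom and 0 with these groups fitted alone (804 at an unadjusted p under 0.05), and 6 to 35 with 1 library left out, being 10, 7 and 17 without FGF8b libraries 1, 2 and 3 and 10 and 6 without FGF9 libraries 2 and 3. The cause was not tested. Trimmed-mean scaling shifted changes by -0.08 to 0.08. The replicate block changed no call of a retinoid gene (4850 genes called with FGF1 against 4772 without it, and 30 against 41 for FGF9 with FGF8b). Of 63 called values of the 14 named pathway genes, 56 kept their call under every alternative and 0 reversed. Depth limits Stra6, Cyp26b1 and the treated levels of Aldh1a1, which rest on 4 to 32, 5 to 30 and 8 to 101 reads per group.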
